A study of Mus musculus with 10 samples.

Results

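The cytosolic ribosomal protein genes were taken as the protein-coding genes whose symbols start with Rpl, Rps or Rplp followed by a number, with an optional letter (a, x, y or l) and optional closing digits, and the ribosomal S6 kinase genes (Rps6k) were left out. This gave 82 of the 54532 genes in the table, 51 of the large subunit and 31 of the small subunit. Counts were high enough for a test in 80 of the 82. The genes left untested were the paralogs Rpl10l, with 0 counts in all 10 libraries, and Rpl39l, with at most 2 counts in a library. The symbol rule leaves out ribosomal proteins with other names, of which Rpsa, Fau and Rack1 are described separately.

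Each cytosolic ribosome is built from a small subunit that reads the mRNA and a large subunit that joins the amino acids. The proteins of both are needed in equal amounts, and their mRNAs are among the most abundant in any cell. Many of these mRNAs start with a run of pyrimidines through which mTORC1 signaling, by way of Larp1, sets how well they are translated, while surplus free Rpl5 and Rpl11 bind Mdm2 and so stabilize p53.

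Bulk RNA-seq libraries came from obstructed kidneys of male wild-type (WT) C57BL/6 mice, aged 8 weeks when the left ureter was ligated (unilateral ureteral obstruction, UUO) and killed 14 days later. One group received PBS and the other dimethyl malonate (DMM, a cell-permeable ester that inhibits succinate dehydrogenase) at 40 mg/kg by intraperitoneal injection every other day. There were 5 PBS mice and 5 DMM mice with a library each, and the comparison asks what DMM does to gene expression in the obstructed kidney. No kidney without obstruction was analysed here, so that all values describe obstructed tissue. Total counts were 18078777, 16457495, 17825223, 18068465 and 16508788 in PBS replicates 1 to 5 and 15797882, 15722527, 17806034, 19475833 and 16794390 in DMM replicates 1 to 5.

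A library stood apart from the others before any group comparison. In DMM replicate 4 the ribosomal protein genes took 1.32% of all counts, against 1.88% to 2.34% in the other 9 libraries. The same library had 20029 genes with a count, against 22898 to 24083 elsewhere, and a TMM scaling factor of 0.852. PBS replicate 3 and DMM replicate 1 carry a weight of 0 in the group means that were deposited with the counts. Both were closest to a library of the opposite group, by chi-square per degree of freedom between libraries (lower for more alike ones). DMM replicate 1 was closest to PBS replicate 2 (7.68, against 49.82 for DMM replicate 2). PBS replicate 3 was closest to DMM replicate 2 (21.99, against 35.78 for PBS replicate 1). Results are therefore given over all 10 libraries, over the 8 libraries without PBS replicate 3 and DMM replicate 1, and again without DMM replicate 4, as 9 and 7 libraries. Leaving out libraries that lay closest to the opposite group can set the groups further apart. Adjusted p-values and calls over 8 and 7 libraries are therefore conditional on that choice.

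No ribosomal protein gene passed the threshold over all 10 libraries. Called genes (adjusted p under 0.05, edgeR quasi-likelihood, Benjamini-Hochberg) numbered 0 of 80 members and 0 of 16505 tested genes, or 0% of the background, and DESeq2 called 0 members and 50 genes (0.163%). At an unadjusted p under 0.05 in edgeR's test, 0 members lay higher and 1 (Rpl24) lower in DMM kidneys, against 4.40% and 6.49% of all tested genes. Over the 8 libraries, 1187 genes were called, 7.17% of those tested (525 or 3.17% higher and 662 or 4.0% lower), and 0 of 80 members. At an unadjusted p under 0.05 the 8 libraries gave 0 members in either direction, against 10.8% of all genes in each direction, and DESeq2 called 2062 genes (6.85%) and again 0 members.

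The median log2 difference of the 80 genes was -0.08 over 10 libraries, beside 0.02 for all tested genes, and -0.10 over 8, beside 0.02. By sign, 57 of the 80 lay lower in DMM kidneys and 23 higher over 10 libraries. Without DMM replicate 4 the sign of the median turned, to 0.04 over 9 libraries and 0.04 over 7, beside 0.002 and -0.01 for all genes, and 59 of 80 genes lay higher over the 9. Large and small subunit genes had medians of -0.09 and -0.05 over 10 libraries and of 0.04 and 0.02 over 9. Differences were small beside those of other genes, with 71 of 80 within 0.2 on the log2 scale against 51.0% of all tested genes. All tested genes include many of lower counts than most members, and no comparison at matched abundance was made. The SE of a member had a median of 0.155 over 10 libraries and 0.0791 over 9, which limits the differences that 10 libraries can tell from 0. Over the 7 libraries 4727 genes were called, 28.1% of those tested (14.3% higher and 13.8% lower), with 1 of the 80 members among them, Rps27l, higher, and over the 9 libraries 0 of 16707 genes were called.

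The values of single libraries showed that the sign of the median rested on DMM replicate 4. Set against the mean of the PBS libraries, the mean log2 CPM of the 80 genes was -0.01, 0.08, -0.14, 0.10 and -0.03 in PBS replicates 1 to 5 and -0.11, -0.01, 0.16, -0.64 and 0.10 in DMM replicates 1 to 5. The groups overlapped, and DMM replicate 4 lay below every other library while the remaining DMM libraries lay from -0.11 to 0.16. In DMM replicate 4, 67 of the 80 genes were under the PBS mean and 19 were under it by more than 1 on the log2 scale. In bulk kidney tissue, fewer cells of a type and less of the RNA in each cell cannot be told apart.

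**Figure D1:**
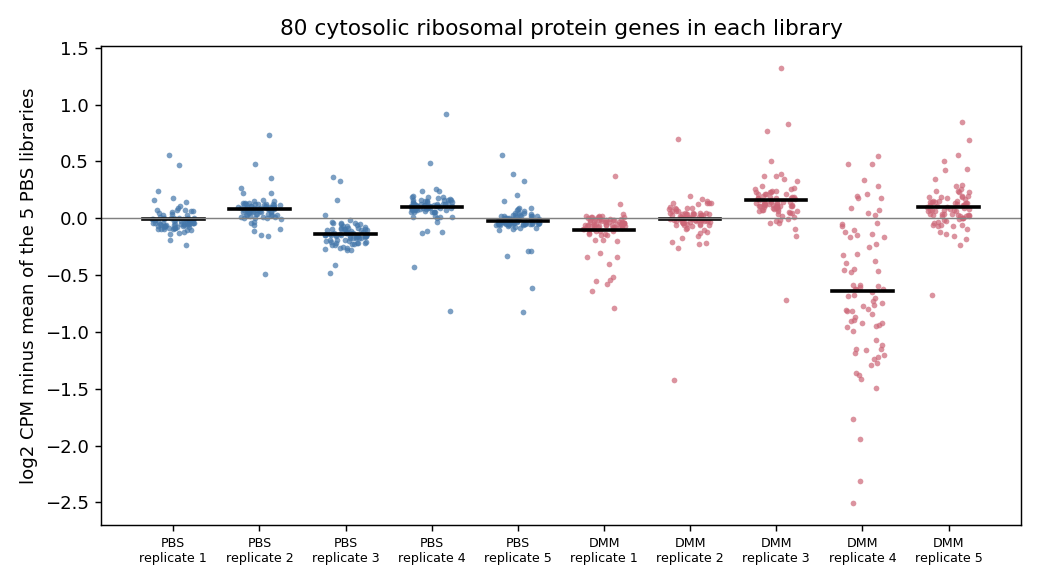
Each point is a gene among the 80 tested ribosomal protein genes in a library, as log2 CPM minus its mean in the 5 PBS libraries (vertical axis), with libraries along the horizontal axis, PBS in blue and DMM in red, and bars at the library mean. The genes spread from -2.51 to 0.55 in DMM replicate 4 and from -1.43 to 0.70 in DMM replicate 2, the next widest, and the mean of DMM replicate 4 is -0.64.

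The SD of the 80 deviations within a library was 0.114, 0.133, 0.117, 0.171 and 0.162 in PBS replicates 1 to 5 and 0.174, 0.199, 0.222, 0.613 and 0.198 in DMM replicates 1 to 5. Over the 5 PBS mice the median SD of a member's log2 CPM was 0.119, against 0.178 for all tested genes. Over the 9 libraries without DMM replicate 4 it was 0.111 against 0.218. These SDs were not compared at matched abundance either. Rps24 and Rpl7l1 varied least over the 10 libraries, with an SD of log2 CPM of 0.0734 and 0.0731, while Rpl7a and Rps10 varied most, with 0.875 and 0.832. Rpl7a and Rps10 share most or many of their reads with near-identical copies.

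The deviation of DMM replicate 4 was uneven across the family. Rps10 (-2.51), Rpl7a (-2.31), Rpl41 (-1.94) and Rpl36 (-1.77) lay furthest under the PBS mean on the log2 scale, and Rps15a (0.55), Rpl3 (0.48) and Rpl26 (0.48) above it. Rpl36 and Rps15a were picked here after their values had been seen. Across the 80 genes the deviation in DMM replicate 4 and the GC content of the transcript had a correlation of -0.34, and in the other 9 libraries the correlation was from -0.15 to 0.14. Across 14428 other protein-coding genes it was -0.47 in DMM replicate 4. These correlations run across genes of a single library, which are not independent replicates, and they describe that library only. The 20 members of highest GC content, at 54.9% or more, had a mean deviation of -0.90 there, and the 20 of lowest GC content, at 48.4% or less, -0.45. The other protein-coding genes with a GC content of at most 45.6% had a mean of 0.46 in that library and those of at least 55.1% a mean of -0.82, near that of the members of highest GC content. Of the 20 members of lowest GC content 6 lay above 0 there. With each library's trend on GC content and length removed, the mean of the members in DMM replicate 4 was -0.08 in place of -0.64, while their SD was 0.602 in place of 0.613. After the correction the correlation with GC content was 0.33, of the opposite sign. Fits with this correction called 0 members and 0% of genes over 10 libraries, and 0 members and 12.6% of genes over 8.

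**Figure D2:**
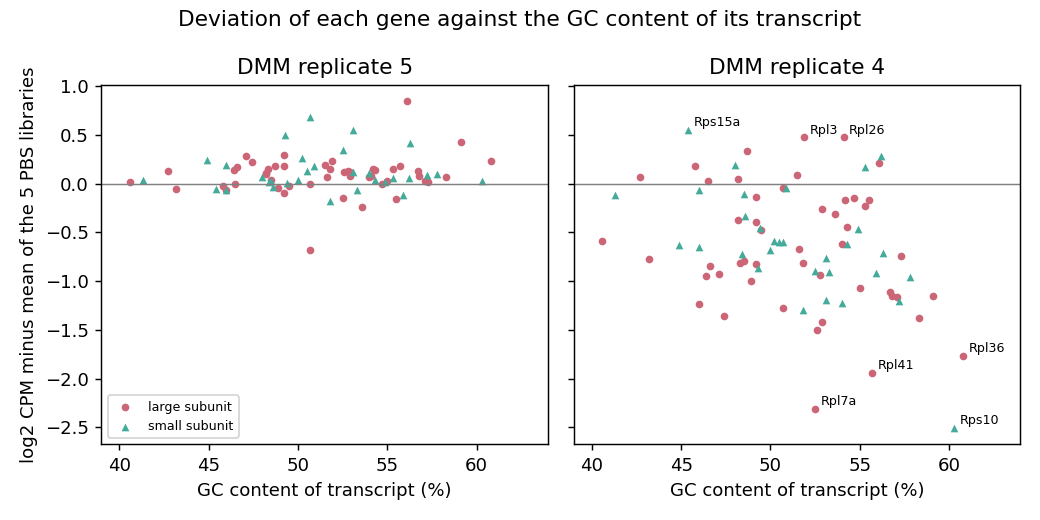
Each point is a ribosomal protein gene, with the GC content of its transcript in percent on the horizontal axis and its log2 CPM minus the PBS mean on the vertical axis, circles for the large and triangles for the small subunit. In DMM replicate 4 (right, r = -0.34) genes of high GC content reach the lowest values, and in DMM replicate 5 (left, r = 0.12) most points lie near 0 at all GC contents.

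The start of the coding sequence is shown for the 3 members lowest and the 3 highest in DMM replicate 4 among those with under 15% of reads on copies, because base composition is a feature that the gene symbols did not use. The first 90 coding bases (75 for Rpl41, whose coding sequence ends there before the stop codon) are from GENCODE M21 transcripts, with G and C in capitals.
Rpl41: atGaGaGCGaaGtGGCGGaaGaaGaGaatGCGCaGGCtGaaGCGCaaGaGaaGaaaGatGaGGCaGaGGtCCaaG
Rpl36: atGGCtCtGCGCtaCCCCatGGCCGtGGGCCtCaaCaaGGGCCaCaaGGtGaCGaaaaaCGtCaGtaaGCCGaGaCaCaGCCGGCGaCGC
Rpl28: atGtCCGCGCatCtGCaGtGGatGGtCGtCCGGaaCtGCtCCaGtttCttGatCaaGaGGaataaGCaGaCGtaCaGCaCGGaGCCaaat
Rpl26: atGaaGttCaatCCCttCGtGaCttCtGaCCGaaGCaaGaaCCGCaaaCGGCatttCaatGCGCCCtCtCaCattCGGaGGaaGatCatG
Rpl3: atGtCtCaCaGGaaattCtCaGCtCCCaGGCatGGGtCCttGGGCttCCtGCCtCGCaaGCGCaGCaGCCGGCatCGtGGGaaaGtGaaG
Rps15a: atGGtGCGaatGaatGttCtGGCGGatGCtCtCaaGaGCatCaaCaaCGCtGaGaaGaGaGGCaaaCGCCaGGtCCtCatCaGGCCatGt
The G and C share of these stretches was 53.3, 62.2 and 52.2% for Rpl41, Rpl36 and Rpl28 and 48.9, 58.9 and 52.2% for Rpl26, Rpl3 and Rps15a, and that of the whole transcripts was 55.7, 60.8 and 52.6% and 54.1, 51.9 and 45.4%. The ranges overlap. Of the 3 highest in DMM replicate 4, Rpl26 and Rpl3 had a transcript GC content above the family's median of 51.7%, and Rps15a one below it.

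Genes outside the family with a short deposited gene length, listed below as other short genes, were low in the same library. The 3569 other protein-coding genes of at most 2732 bases in that length had a mean log2 CPM of -0.74 against the PBS mean in DMM replicate 4 and of -0.04 to 0.05 in the other libraries. Members ran from 383 to 6270 bases, so that some exceed this limit. Across the members, the deviation in DMM replicate 4 had a correlation of 0.18 with the log2 of deposited length and 0.29 with that of coding length. In the other libraries these correlations ran from -0.19 to 0.18 and from -0.35 to 0.42. The 76 mitochondrial ribosomal protein genes were at -0.68 and the 72 nuclear genes of the respiratory chain at -0.88 there. The cytosolic ribosomal protein genes, at -0.64, lay close to the mitochondrial ribosomal protein genes, and whether the lists differ in that library was not tested. Mitochondrial transcripts made up 2.14, 2.30, 3.66, 1.97 and 2.004% in PBS replicates 1 to 5 and 2.30, 3.79, 4.03, 5.62 and 4.39% in DMM replicates 1 to 5, as a share of counts. The nuclear RNA Malat1 was at 687, 502, 433, 542 and 582 CPM in PBS replicates 1 to 5 and 518, 567, 505, 2052 and 732 CPM in DMM replicates 1 to 5, highest in DMM replicate 4, and the nuclear RNA Neat1 at 285, 179, 269.6, 217 and 187 CPM in PBS replicates 1 to 5 and 253, 300.1, 386, 45.7 and 458 CPM in DMM replicates 1 to 5, lowest there. Hemoglobin genes took 0.014% to 0.064% of counts, the most in DMM replicate 4. The part of these features in the low ribosomal protein values was not tested.

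Markers of kidney cell types were present in all libraries, and their sums differed between mice. The 8 proximal tubule markers, led by Slc27a2 in 8 of the 10 libraries, summed to 1933, 1996, 4788, 815 and 1532 CPM in PBS replicates 1 to 5 and 1416, 3965, 4830, 4399 and 5821 CPM in DMM replicates 1 to 5. In DMM replicate 4 the endocytic receptor Lrp2 was the highest of them at 2504 CPM, and Slc34a1, Slc5a2, Slc22a6 and Slc27a2, at 474, 36.4, 99.2 and 500.3, lay below DMM replicates 2, 3 and 5. The 5 macrophage markers, led by C1qb in PBS mice and DMM replicate 1 and by Csf1r in the other DMM mice, summed to 1170, 1042, 935, 1074 and 1247 CPM in PBS replicates 1 to 5 and 972, 688, 575, 460.2 and 592 CPM in DMM replicates 1 to 5. The low sum of DMM replicate 4 lay in C1qa and C1qb, at 32.5 and 49.4 CPM, while Adgre1 and Csf1r, at 131 and 223, lay above DMM replicates 2, 3 and 5. The 6 T cell markers, led by Cd4, summed to 48.1, 48.6, 47.3, 41.97 and 69.5 CPM in PBS replicates 1 to 5 and 43.5, 36.1, 15.8, 19.5 and 19.5 CPM in DMM replicates 1 to 5. The 3 neutrophil markers, led by S100a9 except in DMM replicate 4, where Cxcr2 was higher, summed to 5.24, 6.95, 4.10, 61.5 and 10.4 CPM in PBS replicates 1 to 5 and 8.15, 3.40, 12.5, 68.9 and 10.9 CPM in DMM replicates 1 to 5, highest in PBS replicate 4 and DMM replicate 4. The 5 red cell markers, led by Hbb-bs, summed to 136, 228, 230.1, 157 and 152 CPM in PBS replicates 1 to 5 and 288, 216, 593, 788 and 276 CPM in DMM replicates 1 to 5. Sums for some other lists ran from 1471 to 4554 CPM for the loop of Henle (2 markers, led by Umod) and 148 to 532 for the distal tubule (2, Slc12a3). They were 113 to 286 for the collecting duct (4, Aqp2 or Scnn1g), 379.5 to 683 for podocytes (3, Podxl) and 402 to 631 for endothelium (4, Pecam1). The 5 fibroblast and myofibroblast markers, led by Col3a1, summed to 4493, 6933, 3576, 10690 and 6472 CPM in PBS replicates 1 to 5 and 8090, 3756, 2628, 5669 and 2986 CPM in DMM replicates 1 to 5, lowest in DMM replicates 3 and 5. NK cell markers (3, led by Klrb1c or Ncr1) summed to 1.19 to 3.99 CPM. The part of cell composition in the group values was not tested.

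Among core proteins of the large subunit, the smallest p-values over 10 libraries belonged to Rpl23a, Rpl3 and Rpl27, apart from the low-count gene Rpl24. Rpl3 (ENSMUSG00000060036, chromosome 15, 80077791 to 80091868, minus strand), which lies next to the peptidyl transferase center, was at 545, 599, 514, 579.8 and 562 CPM in PBS replicates 1 to 5 and 523, 571, 674, 779 and 657 CPM in DMM replicates 1 to 5. DMM replicates 3, 4 and 5 were higher than every PBS mouse and DMM replicates 1 and 2 were within the PBS range. Its log2 fold change was 0.19 ± 0.12 (SE, adjusted p = 0.556) over 10 libraries (edgeR quasi-likelihood, Benjamini-Hochberg) and 0.23 ± 0.12 (SE, adjusted p = 0.330) over 8, and 0.12 ± 0.09 without DMM replicate 4. Rpl3 overlaps Syngr1 on the opposite strand, and 8.44% of its joint reads fell on copies. Rpl23a, a protein at the exit of the nascent chain tunnel, was at 126, 155, 135, 143 and 109 CPM in PBS replicates 1 to 5 and 126, 114, 80.6, 95.7 and 130.3 CPM in DMM replicates 1 to 5. The lowest values were those of DMM replicates 3 and 4, and the other DMM values lay in the PBS range. Its log2 fold change was -0.29 ± 0.15 (SE, adjusted p = 0.508) by the same test over 10 libraries, and -0.21 ± 0.12 once its copies, with 27.3% of the joint reads, were added.

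Rpl27, also of the large subunit, was at 196, 203, 166, 204 and 194 CPM in PBS replicates 1 to 5 and 184, 173, 187, 171 and 173 CPM in DMM replicates 1 to 5. The DMM values were close together and inside the PBS range, whose lowest value was that of PBS replicate 3. The log2 fold change was -0.12 ± 0.09 over 10 libraries, -0.18 ± 0.09 over 8 and -0.17 ± 0.06 over 7, with adjusted p-values of 0.615, 0.307 and 0.0573 (edgeR quasi-likelihood, Benjamini-Hochberg). Rpl26 was at 255, 283, 238, 281 and 272 CPM in PBS replicates 1 to 5 and 251, 264, 275, 369 and 281 CPM in DMM replicates 1 to 5. DMM replicate 4 alone lay outside the PBS range, and the log2 fold change of 0.12 ± 0.12 over 10 libraries became 0.01 ± 0.07 without it. The large subunit proteins Rpl10, Rpl7 and Rpl22 had log2 fold changes of 0.03 ± 0.12, 0.06 ± 0.10 and -0.01 ± 0.12 over 10 libraries, with values of 437 to 508 CPM in PBS mice and 359 to 528 CPM in DMM mice for Rpl10. Rpl17, which lies at the tunnel exit, had 67.3 to 94.2 CPM in PBS mice and 59.3 to 94.8 CPM in DMM mice, a log2 fold change of -0.01 ± 0.15 over 10 libraries and of 0.16 ± 0.13 over 8. The sign thus turned with the set of libraries, and 75.4% of the joint reads of Rpl17 were on copies.

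The acidic stalk of the large subunit, which recruits elongation factors, is formed by Rplp0 with Rplp1 and Rplp2. Rplp0 was at 911, 962, 828, 1036 and 907 CPM in PBS replicates 1 to 5 and 922, 950, 1084, 777 and 977 CPM in DMM replicates 1 to 5. DMM replicate 3 was the highest and DMM replicate 4 the lowest of the 10, and the groups overlapped. Rplp1 was at 416, 484, 406, 509 and 461 CPM in PBS replicates 1 to 5 and 444, 453, 514, 271 and 460.1 CPM in DMM replicates 1 to 5, and Rplp2 at 134, 145, 123, 168 and 147 CPM in PBS replicates 1 to 5 and 139, 146, 157, 67.6 and 146 CPM in DMM replicates 1 to 5. Both were lowest in DMM replicate 4, with the other DMM libraries in the PBS range or just above it. The log2 fold changes over 10 libraries were 0.02 ± 0.12 for Rplp0, -0.09 ± 0.16 for Rplp1 and -0.13 ± 0.20 for Rplp2, and without DMM replicate 4 they were 0.08 ± 0.08, 0.04 ± 0.09 and 0.04 ± 0.09. The adjusted p-values over 10 libraries were 0.953, 0.838 and 0.810 (edgeR quasi-likelihood, Benjamini-Hochberg). The Rplp2 coding sequence is matched at 99.4% identity in Wdr89, a protein-coding gene, which held 12.8% of the joint reads.

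Rpl5 and Rpl11 carry 5S rRNA into the large subunit and, when free, bind Mdm2. Rpl5 was at 460.1, 515, 432, 501 and 464 CPM in PBS replicates 1 to 5 and 453, 462, 521, 497 and 519.8 CPM in DMM replicates 1 to 5. Its DMM values, DMM replicate 4 included, lay in the PBS range or just above it. Rpl11 was at 293, 309, 275, 321 and 289 CPM in PBS replicates 1 to 5 and 295, 301, 332, 111 and 322 CPM in DMM replicates 1 to 5. DMM replicate 4 was at well under the level of any other library, and the other DMM values overlapped those of the PBS mice. The log2 fold changes over 10 libraries were 0.05 ± 0.10 (SE, adjusted p = 0.854) for Rpl5 and -0.13 ± 0.24 (SE, adjusted p = 0.842) for Rpl11 (edgeR quasi-likelihood, Benjamini-Hochberg), and for Rpl11 0.07 ± 0.07 without DMM replicate 4. Of 11 tested genes of Mdm2 and p53 targets, 0 were called over 10 libraries and 1, lower, over 8 (the cell cycle inhibitor Cdkn1a), beside 4.0% of all tested genes called lower over 8, with medians of -0.27 and -0.45 against 0.02 for all genes. Without DMM replicate 4 the medians were -0.12 over 9 and -0.22 over 7 libraries, with 0 called over the 9, where 0% of all genes were, and 1 higher and 4 lower over the 7, beside 14.3% of all genes called higher and 13.8% lower. Cdkn1a was at 70.1, 79.8, 55.5, 102 and 85.2 CPM in PBS replicates 1 to 5 and 80.1, 57.9, 58.7, 54.8 and 55.7 CPM in DMM replicates 1 to 5. Apart from DMM replicate 1 and PBS replicate 3, the DMM values lay below the PBS values. Its log2 fold change was -0.36 ± 0.17 (SE, adjusted p = 0.478) over 10 libraries and -0.57 ± 0.13 (SE, adjusted p = 0.0315) over 8 (edgeR quasi-likelihood, Benjamini-Hochberg). Phlda3, an inhibitor of Akt, had -0.58 ± 0.33 over 10 libraries and -0.97 ± 0.31 over 8, passed in neither, and was called over 7.

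In the small subunit, Rps6 is the substrate of the S6 kinases downstream of mTORC1. Rps6 (ENSMUSG00000028495, chromosome 4, 86854660 to 86857412, minus strand) was at 446, 464, 402, 512 and 452 CPM in PBS replicates 1 to 5 and 452, 436, 485, 283 and 465 CPM in DMM replicates 1 to 5. DMM replicate 4 was lowest, and the other DMM mice lay inside the PBS range. For Rps6 the log2 fold change was -0.10 ± 0.15 (SE, adjusted p = 0.794) over 10 libraries (edgeR quasi-likelihood, Benjamini-Hochberg) and 0.01 ± 0.08 without DMM replicate 4. Rps18, which lies in the head of the subunit, had 270.1 to 326 CPM in PBS mice and 192 to 319 CPM in DMM mice, with log2 fold changes of -0.10 ± 0.14 over 10 and 0.01 ± 0.07 over 9 libraries. Rps4x had 477 to 592 CPM in PBS mice and 496 to 574 CPM in DMM mice and a log2 fold change of -0.002 ± 0.10, Rps3a1 had 528 to 635 CPM in PBS mice and 560.1 to 665 CPM in DMM mice and 0.05 ± 0.10, and Rps24 had 263 to 311 CPM in PBS mice and 269.8 to 288 CPM in DMM mice and -0.06 ± 0.09. These 3 genes were within the range of the PBS mice or close to it even in DMM replicate 4.

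Regulators of ribosome production were compared in the same fits. Of 18 tested genes of mTORC1 and Myc control, 0 were called over 10 libraries, and 2 higher (Mtor and Deptor) and 1 lower (Max) over 8, beside 3.17% of all tested genes called higher and 4.0% lower, with medians of 0.04 and 0.04. Mtor and Max were named after their values had been seen. Deptor, which binds and inhibits mTOR, was at 103, 109, 124, 89.8 and 108 CPM in PBS replicates 1 to 5 and 115, 134, 180.4, 279.6 and 170.1 CPM in DMM replicates 1 to 5. DMM replicates 2 to 5 lay above every PBS mouse and DMM replicate 1 did not. Its log2 fold change was 0.72 ± 0.22 (SE, adjusted p = 0.378) over 10 libraries and 0.90 ± 0.21 (SE, adjusted p = 0.0383) over 8 (edgeR quasi-likelihood, Benjamini-Hochberg). Mxd1, an antagonist of Myc, had -0.50 ± 0.18 and -0.64 ± 0.20, passed in neither and was called over 7. Beside 0% and 7.17% of all tested genes, of 36 translation factors 0 were called over 10 or 8 libraries, and of 48 tested genes of ribosome biogenesis 0 and 1 (Tcof1, lower, a nucleolar factor of rRNA synthesis), with medians over 10 libraries of 0.16 and 0.03. Tcof1 had a log2 fold change of -0.57 ± 0.10 (SE, adjusted p = 0.0137) over 8 libraries (edgeR quasi-likelihood, Benjamini-Hochberg) and -0.36 ± 0.15 over 10, and Nip7 one of -0.24 ± 0.13 over 10. The translation factors Eif5 and Eif4b had 0.34 ± 0.14 and 0.28 ± 0.11 over 10 libraries, and the mean of the 36 factors in DMM replicate 4 was 0.35, opposite in sign to that of the ribosomal protein genes. Over 9 libraries 0 genes of these lists and 0% of all genes were called, and over 7, beside 14.3% of all genes called higher and 13.8% lower, 3 higher and 2 lower of 18 genes of mTORC1 and Myc control, 5 translation factors, all higher and with Eif5 and Eif4b among them, and 1 higher and 1 lower of 48 biogenesis genes.

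Cytosolic and mitochondrial ribosomal protein genes and nuclear respiratory chain genes each had 0 calls over 10 and over 9 libraries, where 0% of all tested genes were called. Over the 7 libraries, 1 of 80 cytosolic ribosomal protein genes was called, against 24 of 76 mitochondrial ribosomal protein genes and 68 of 72 respiratory chain genes, all higher in DMM kidneys, with medians of 0.04, 0.20 and 0.51. Of all tested genes 14.3% were called higher there. Over the 8 libraries the counts were 0, 0 and 2, all higher, beside 3.17% of all genes called higher. The 8 proximal tubule markers, led by Slc27a2 in these libraries and none at 0, summed to 815 to 1996 CPM in the 4 PBS mice of the 7 libraries and to 3965 to 5821 CPM in the 3 DMM mice, while the left-out PBS replicate 3 (4788) and DMM replicate 1 (1416) each lay in the range of the opposite group. Their part in these counts, and whether the lists differ, was not tested. Mrps18b and Mrpl1 had the smallest p among mitochondrial ribosomal proteins over 10 libraries, with log2 fold changes of 0.26 ± 0.13 and 0.37 ± 0.20, and Atp5s and Ndufa9 among respiratory chain genes, with 0.45 ± 0.16 and 0.29 ± 0.14. Among the other short genes Clec4a1 and Gem had -0.77 ± 0.13 and -1.09 ± 0.20, also without passing over 10 libraries in edgeR's test. Ndufa9, Clec4a1 and Gem were called over 8, and these and Atp5s over 7. Clec4a1 and Gem were called lower, as were 4.0% of all tested genes over 8 and 13.8% over 7. These genes were picked for their small p over the 10 libraries, so calls in part of those libraries are not separate support.

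Rps27a is made as a fusion with ubiquitin. Rps27a (ENSMUSG00000020460, chromosome 11, 29545846 to 29548109, minus strand) was at 74.6, 78.9, 76.2, 166 and 69.8 CPM in PBS replicates 1 to 5 and 61.1, 73.4, 219.8, 48.1 and 124 CPM in DMM replicates 1 to 5. PBS replicate 4 stood above the other PBS mice, DMM replicates 3 and 5 above the other DMM mice, and the groups overlapped. The log2 fold change was 0.18 ± 0.41 (SE, adjusted p = 0.871) over 10 libraries (edgeR quasi-likelihood, Benjamini-Hochberg). Fau, a fusion of a small subunit protein with a ubiquitin-like protein, was at 232 to 273 CPM in PBS mice and 83.5 to 287 CPM in DMM mice, Rpsa at 679 to 883 CPM in PBS mice and 685 to 809 CPM in DMM mice and Rack1, a scaffold on the small subunit, at 536 to 693 CPM in PBS mice and 610.4 to 662 CPM in DMM mice. Their log2 fold changes over 10 libraries were -0.14 ± 0.27, -0.04 ± 0.11 and 0.06 ± 0.11. Of these 3 genes outside the symbol rule, 0 were called over 10 or 8 libraries, beside 0% and 7.17% of all tested genes.

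Rpl13a, which is often used as a reference gene, was at 16.5, 22.7, 21.1, 17.2 and 17.6 CPM in PBS replicates 1 to 5 and 18.95, 21.2, 20.3, 15.2 and 15.99 CPM in DMM replicates 1 to 5. The groups overlapped, and the log2 fold change was -0.05 ± 0.14 (SE, adjusted p = 0.889) over 10 libraries (edgeR quasi-likelihood, Benjamini-Hochberg). Rpl41, whose coding sequence of 75 bases before the stop codon is the shortest of the 80, was at 354, 346, 302, 362 and 366 CPM in PBS replicates 1 to 5 and 273, 324, 392, 89.8 and 393 CPM in DMM replicates 1 to 5. DMM replicate 4 lay far below the other libraries, and DMM replicates 3 and 5 were above every PBS mouse. The log2 fold change was -0.24 ± 0.31 over 10 libraries and -0.003 ± 0.11 without DMM replicate 4.

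Several members have a paralog that is expressed in few tissues or at low level. Rpl3l, the striated muscle paralog of Rpl3, was at 0.636, 0.530, 0.731, 0.266 and 0.765 CPM in PBS replicates 1 to 5 and 0.617, 0.630, 0.737, 0.665 and 1.09 CPM in DMM replicates 1 to 5, in overlapping ranges and far under Rpl3. Rpl22l1, the paralog of Rpl22, was at 34.1, 36.96, 34.4, 37.6 and 35.7 CPM in PBS replicates 1 to 5 and 36.2, 35.2, 33.4, 23.7 and 36.2 CPM in DMM replicates 1 to 5. Below the PBS range lay DMM replicate 4, by a wide margin, and DMM replicate 3, just under it. Rpl22 itself had 182 to 203 CPM in PBS mice and 144 to 215 CPM in DMM mice, and the log2 fold changes over 10 libraries were -0.12 ± 0.12 for Rpl22l1 and -0.01 ± 0.12 for Rpl22. Rpl7l1, the paralog of Rpl7 that takes part in ribosome assembly, was at 88.8, 89.6, 90.2, 91.7 and 97.4 CPM in PBS replicates 1 to 5 and 91.5, 85.96, 82.2, 83.2 and 85.9 CPM in DMM replicates 1 to 5. DMM replicates 2 to 5 lay below every PBS mouse and DMM replicate 1 among them, with a log2 fold change of -0.09 ± 0.08 (SE, adjusted p = 0.632) over 10 libraries and -0.08 ± 0.05 without DMM replicate 4 (edgeR quasi-likelihood, Benjamini-Hochberg). Rpl39 had 93.3 to 117 CPM in PBS mice and 100.4 to 140.4 CPM in DMM mice and a log2 fold change of 0.09 ± 0.12, while its paralog Rpl39l had at most 2 counts in a library. Rpl10l, the testis paralog of Rpl10, was at 0 counts throughout, and Rps4l was not analysed here.

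Rps27l, the p53-responsive paralog of Rps27, was at 68.2, 65.5, 61.1, 65.9 and 66.3 CPM in PBS replicates 1 to 5 and 61.5, 71.6, 78.2, 42.3 and 77.3 CPM in DMM replicates 1 to 5. DMM replicates 2, 3 and 5 lay above every PBS mouse and DMM replicate 4 far below. Its log2 fold change was 0.02 ± 0.15 (SE, adjusted p = 0.970) over 10 libraries, 0.02 ± 0.19 (SE, adjusted p = 0.968) over 8 and 0.14 ± 0.08 (SE, adjusted p = 0.344) over 9 (edgeR quasi-likelihood, Benjamini-Hochberg). Over the 7 libraries it was 0.19 ± 0.06 (SE, adjusted p = 0.0342) by the same test, the only member called. The 3 DMM mice of that comparison all exceeded the 4 PBS mice, at a background of 14.3% of genes called higher. The call thus rested on leaving out 3 libraries, among them the DMM mouse with the lowest value.

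Many ribosomal protein genes have near-identical copies, mostly processed pseudogenes, between which reads cannot be told apart with certainty. A search of the coding sequences found 548 copies of at least 95% identity over at least 80% of the coding sequence, for 76 of the 82 genes. The members held 3525874 counts and the copies 325213, or 8.44% of the sum, and the copies held more than 10% for 26 members. The share on copies was 8.28, 7.78, 8.37, 7.98 and 8.58% in PBS replicates 1 to 5 and 8.61, 8.32, 7.95, 11.3 and 8.20% in DMM replicates 1 to 5, highest in DMM replicate 4. With copies added to each member before the fit, the median log2 difference was -0.06 over 10 libraries and -0.09 over 8, again with 0 members called. The range was -0.23 to 0.36 in place of -0.93 to 0.36 over 10 libraries. Over 8 it was -0.30 to 0.51 in place of -0.99 to 0.51.

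How reads that match several copies were counted is not given in the sources used here. Counts were split between Rps27 (ENSMUSG00000090733, chromosome 3, 90212522 to 90213651, minus strand) and its retrogene Rps27rt (chromosome 9, 114982366 to 114982739). The split between Rps27 and Rps27rt varied between libraries, and its cause was not tested. Their coding sequences of 252 bases, without the stop codon, did not differ at any position in GENCODE M21, and the shared sequence is printed once, in lower case throughout since there is no difference to mark.
Rps27 and Rps27rt: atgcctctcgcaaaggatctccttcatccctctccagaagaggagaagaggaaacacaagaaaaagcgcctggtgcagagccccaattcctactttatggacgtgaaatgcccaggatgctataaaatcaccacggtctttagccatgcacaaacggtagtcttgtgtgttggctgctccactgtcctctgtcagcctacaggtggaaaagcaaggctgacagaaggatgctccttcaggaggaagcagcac
Rps27 was at 87.9, 81.3, 45.4, 89.2 and 35.8 CPM in PBS replicates 1 to 5 and 82.3, 72.5, 108, 41.98 and 102 CPM in DMM replicates 1 to 5. Rps27rt was at 42.2, 40.02, 62.7, 36.6 and 92.9 CPM in PBS replicates 1 to 5 and 26.97, 48.5, 27.03, 82.9 and 35.9 CPM in DMM replicates 1 to 5. Where Rps27 was low, as in PBS replicates 3 and 5 and DMM replicate 4, Rps27rt was high. The sums were 130.1, 121, 108, 126 and 129 CPM in PBS replicates 1 to 5 and 109, 121, 135, 125 and 138 CPM in DMM replicates 1 to 5, and the SD of log2 CPM over 10 libraries was 0.117 for the sum against 0.567 for Rps27 alone. The log2 fold change of Rps27 was 0.26 ± 0.31 (SE, adjusted p = 0.738) over 10 libraries (edgeR quasi-likelihood, Benjamini-Hochberg) and 0.03 ± 0.10 with all its copies added.

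**Figure D3:**
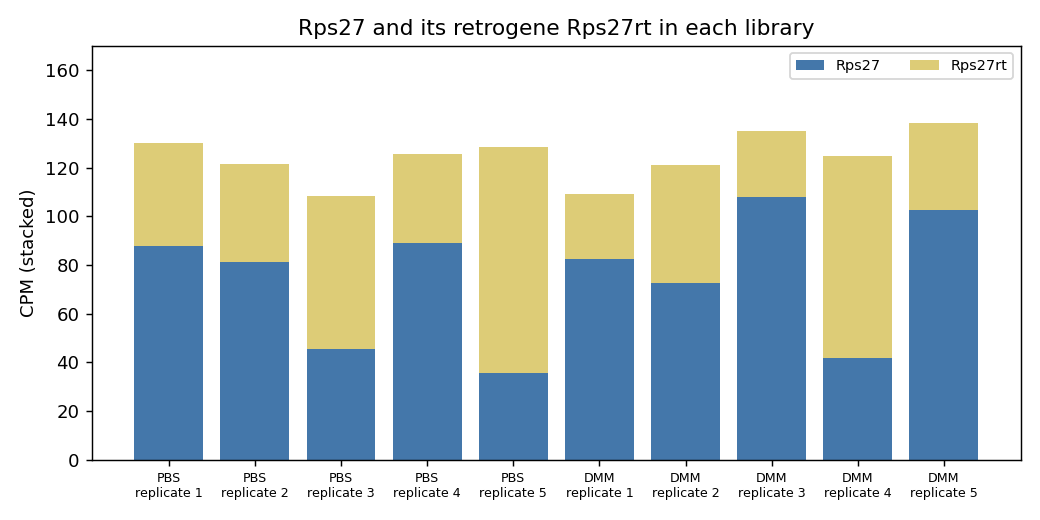
Stacked bars give the CPM of Rps27 (blue) and of its retrogene Rps27rt (yellow) in each library, with libraries along the horizontal axis. The share on Rps27 runs from 27.8% in PBS replicate 5 to 79.97% in DMM replicate 3, while the summed height stays between 108 and 138 CPM.

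For a few members the annotated gene held the smaller part of the reads. Copies held 95.03% of the joint counts of Rps10, 83.4% of Rpl21, 82.6% of Rpl24 and 75.4% of Rpl17. Rps10 was at 3.71, 3.53, 2.70, 3.88 and 4.59 CPM in PBS replicates 1 to 5 and 2.28, 3.97, 4.08, 0.544 and 3.71 CPM in DMM replicates 1 to 5. DMM replicates 4 and 1 lay below every PBS mouse, and the other DMM values were in the PBS range. Its pseudogene Rps10-ps2 was at 57.4, 64.3, 56.3, 65.8 and 60.8 CPM in PBS replicates 1 to 5 and 58.6, 64.4, 69.99, 31.4 and 68.4 CPM in DMM replicates 1 to 5, also lowest in DMM replicate 4. Rpl24, the member with the smallest p over 10 libraries, had 30, 12, 16, 14 and 27 counts in PBS replicates 1 to 5 and 9, 5, 18, 6 and 10 counts in DMM replicates 1 to 5. The groups overlapped at these low counts, with DMM replicate 3 inside the PBS range. Its log2 fold change was -0.93 ± 0.40 (SE, adjusted p = 0.435) over 10 libraries and -0.99 ± 0.48 (SE, adjusted p = 0.281) over 8 (edgeR quasi-likelihood, Benjamini-Hochberg), and with the copies added -0.19 ± 0.24 (SE, adjusted p = 0.757) over 10. Rpl24 also overlaps the gene model Gm28037 on its own strand, which was at 0 counts.

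Rpl7a was at 75.5, 119.6, 64.3, 70.1 and 46.9 CPM in PBS replicates 1 to 5 and 48.1, 76.2, 127, 14.4 and 65.04 CPM in DMM replicates 1 to 5, the widest spread of the 80 genes. DMM replicate 3 was the highest and DMM replicate 4 the lowest library, so that the DMM mice spanned the PBS range. The log2 fold change was -0.18 ± 0.45 over 10 libraries and 0.07 ± 0.31 without DMM replicate 4. Copies held 38.3% of the joint counts, and the most abundant, Rpl7a-ps5, was highest in DMM replicate 4 at 21.6 CPM. Of the members, 14 overlap a protein-coding gene on the opposite strand, and in 10 of these that gene had more than 5% as many counts. Without strand information those reads cannot be assigned with certainty.

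Levels can be compared between genes on the deposited FPKM scale, which divides by gene length. The highest mean FPKM of the 80 belonged to the stalk gene Rplp1, with 905 ± 88.7 (SD, n = 5) in PBS mice and 854 ± 185 in DMM mice. Rps3a1 followed with 592 ± 49.98 and 614 ± 41.0, and Rplp0 with 556 ± 46.4 and 565 ± 67.8. Rplp1 exceeded both by more than these SDs in PBS mice, and Rps3a1 and Rplp0 did not differ beyond theirs. The lowest were Rps10, Rpl24 and Rpl3l, with 1.58 ± 0.295, 1.07 ± 0.431 and 0.354 ± 0.121 in PBS mice. The deposited length of a member had a median ratio of 2.01 to its chosen GENCODE M21 transcript, and genes with long models, such as Rps24 at 6256 bases against a transcript of 1613, are understated on this scale.

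Promoters and transcript starts were taken from RefSeq on GRCm38.p6, where 62 of the 82 genes matched. The motifs were picked after some of the start sequences had been seen, and both strands were searched for the first pair. CCGGAAG, the core bound by ETS family factors such as GABP, was in 25 of 62 windows of 300 bases (40.3%), against 9.93% of 27018 genes. GCCATNTT, the core of the YY1 motif, was in 13 (20.97%), against 6.96%. A C followed by at least 4 pyrimidines, from 3 bases before to 9 after the start, was found in 27 genes (43.6%), against 15.3%. A match is a description of letters in a window and not evidence of binding or of regulation. Windows of 25 bases around the start are shown for 4 members described here, with the pyrimidines found within the searched bases in capitals (in Rpl13a the run goes on past them), because this run is the feature through which mTORC1 acts on these mRNAs.
Rps6, chr4:86857353-86857377, minus strand: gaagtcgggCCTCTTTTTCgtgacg
Rps18, chr17:33955651-33955675, minus strand: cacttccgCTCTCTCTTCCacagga
Rpl13a, chr7:45128731-45128755, minus strand: cctgcgacaagaCCTCCTCctttcc
Rps27, chr3:90213634-90213658, minus strand: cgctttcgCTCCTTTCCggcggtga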

How the data were processed

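Kidney RNA of 10 mice was sequenced on a NovaSeq X Plus, and the authors aligned reads to mm10. The submitters' processing notes name HISAT2 2.0.5; the counting tool, the annotation release and the strand setting are not given in the sources used here. The authors deposited raw counts per gene and FPKM for each library. The deposited comparison columns hold group means (a signal, in counts over size factors), a log2 fold change, and a p-value with its adjusted form, from DESeq2 run by the authors; these were not used, apart from finding which libraries the means weight by 0.

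Counts were filtered with filterByExpr, scaled by TMM and tested with edgeR 4.0.16 in R 4.3.3 (quasi-likelihood, Benjamini-Hochberg adjustment over all tested genes, call at 0.05), leaving 16505 genes over 10 libraries and 16550 over 8. Each SE is the log2 fold change over the root of its F. CPM are TMM-scaled, and log2 CPM used a prior count of 2. DESeq2 1.42.0 was an alternative, beside other scalings, filters, thresholds, gene sets, length, the replicate block and each library left out. Corrections for GC content and length (loess, span 0.3), copies added to members and the fits without DMM replicate 4 over the 8 libraries were chosen after seeing the data. GC content, coding sequences and copies (BLAST 2.17.0) are from GENCODE M21, whose positions equal the deposited ones for 80 of the 82 members. The limits that define a copy, the split by GC content, the motifs, the members singled out for copies and the sequences shown were also picked after seeing the data.

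Named genes were the 3 members of smallest p in each direction over 10 and over 8 libraries, the 3 of highest and 3 of lowest level per length, the 2 of largest and 2 of smallest SD, a fixed set (stalk, 5S particle, Rps6, Rps27a, Rpl13a, Rps18, Rpl41 and paralogs with their parent genes), and the 2 genes of smallest p in each other list. Members and lists were chosen with earlier results of these data known. Genes picked by smallest p were picked in these same libraries, so their calls over 8 or 7 libraries are not separate support. The replicates are separate mice. Some results on single genes are not reported here. On simulated counts in which no library stood apart, edgeR over 10 libraries recovered 95.7% of 94 genes changed by 2 on the log2 scale. It recovered 57.7% of 97 changed by 1, and smaller changes were not simulated. The real libraries include DMM replicate 4, so these rates do not give the power of the fits reported here.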

Additional observations from a re-analysis of the deposited data

Results flagged for a closer look

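In groups of 5 mice, the gap from the highest or lowest value to its neighbor was divided by the group's range and set against Dixon's critical value of 0.710. The 86 groups looked at (the tested named members, the list means and some measures of library makeup) share libraries and are not independent. Of them, 20 were past it, where chance gives about 1 in 20. DMM replicate 4 was the library set apart in 13 of these and PBS replicate 3 in 6. DMM replicate 4 was low for the mean log2 CPM of ribosomal proteins outside the naming rule (ratio 0.880), the mean log2 CPM of other short genes (ratio 0.916), Rpl10 (ratio 0.748), Rpl11 (ratio 0.891), Rpl22l1 (ratio 0.810), Rpl41 (ratio 0.752), Rplp1 (ratio 0.771), Rplp2 (ratio 0.857), Rps18 (ratio 0.722), Rps6 (ratio 0.802) and the share of counts on the ribosomal protein genes (ratio 0.761). DMM replicate 4 was high for the mean log2 CPM of translation factors (ratio 0.771) and the share of reads on copies (ratio 0.802). PBS replicate 3 was high for the mean log2 CPM of mitochondrial ribosomal proteins (ratio 0.715), Rpl17 (ratio 0.861) and the share of counts on mitochondrial transcripts (ratio 0.803). PBS replicate 3 was low for Rpl27 (ratio 0.767), Rpl39 (ratio 0.932) and Rpl41 (ratio 0.714). PBS replicate 4 was high for Rps27a (ratio 0.858). For Rpl39, PBS replicate 3 was at 93.3 CPM against 116 to 117 in the other PBS mice, and for Rps27a PBS replicate 4 was at 166 CPM against 69.8 to 78.9. What sets these libraries apart was not tested. Malat1 and the number of genes with a count were not among the groups looked at. The mean log2 CPM of the 80 ribosomal protein genes was among them and was not past the critical value.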

How the results depend on the processing

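Over 10 libraries 0 members were called under each alternative run, DESeq2 included, and 0 genes except under DESeq2 (50) and in the fits without a single library, which gave 0 to 517, the 517 without DMM replicate 1. Over the 8 libraries 1187 genes became 2062 with DESeq2, 2081 with the GC and length correction and 0 with the replicate block, and between 407 (without PBS replicate 5) and 4727 (without DMM replicate 4) without a single library. Members called over the 8 libraries were 0 to 1 without a single library, the 1 being Rps27l without DMM replicate 4, and 0 under the other alternatives. The median log2 difference of the members ran from -0.15 (library size alone) to -0.01 (length correction) over 10 libraries in fits that kept all libraries, and from -0.12 (without DMM replicate 3) to 0.04 (without DMM replicate 4) with a library left out. Over 8 it ran from -0.24 (replicate block) to -0.04 (length correction), and from -0.18 (without DMM replicate 3) to 0.04 (without DMM replicate 4) with a library left out. Library size alone also moved the median of all genes over the 8 libraries, from 0.02 to -0.09. The replicate numbers do not pair the mice: correlations of same-numbered deviations were -0.06, 0.079, 0.341, 0.124 and -0.223, and not every library correlated best with its own number. With the block over all 10 libraries, the calls stayed at 0 and the member median was -0.10. Over the 8 libraries, the block compared mice only within replicates 2, 4 and 5. Replicates 1 and 3 each kept a library of a single group there, so that fit rests on fewer mice than the others over the 8.

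With edgeR, named genes were not called over all 10 libraries, and their small differences changed sign as follows, on the log2 scale. With library size alone: Rpl10 -0.0466, Rpl39 -0.0064, Rpl5 -0.0384, Rpl7 -0.027, Rplp0 -0.0577, Rps27l -0.0534, Rps3a1 -0.0376, Rack1 -0.0246. With the length correction: Rpl13a 0.0354, Rpl17 0.0807, Rpl22 0.0497, Rpl27 0.0097, Rps4x 0.12. With the GC and length correction: Rpl13a 0.0682, Rpl22 0.0085, Rpl27 0.085, Rpl5 -0.0025, Rplp1 0.0564, Rps27l -0.0283, Rps4x 0.0323. With RLE size factors: Rpl17 0.0012, Rpl22 0.0036, Rps4x 0.0074. With copies added: Rpl17 0.0551, Rps4x 0.008. With the 8 libraries: Rpl17 0.16, Rpl22 0.006, Rplp0 -0.0115. With the replicate block: Rps27l -0.0145, Rps4x 0.0017. With DESeq2: Rps4x 0.0005. With protein-coding genes alone: Rps4x 0.0014. Without a single library, the lowest and highest values were -0.0133 to 0.11 for Rpl10, -0.21 to 0.0719 for Rpl11, -0.10 to 0.0287 for Rpl13a, -0.12 to 0.0946 for Rpl17, -0.0563 to 0.0785 for Rpl22, -0.56 to 0.0741 for Rpl7a, -0.0355 to 0.0826 for Rplp0, -0.16 to 0.0398 for Rplp1, -0.20 to 0.0364 for Rplp2, -0.15 to 0.0113 for Rps18, -0.28 to 0.49 for Rps27a, -0.0497 to 0.14 for Rps27l, -0.0403 to 0.0421 for Rps4x, -0.16 to 0.0128 for Rps6. The cause of these changes was not tested. Among named genes of other lists, 6 passed the threshold over the 8 libraries, 11 over the 7 and 4 without DMM replicate 1. Of all tested genes 7.17%, 28.1% and 3.08% passed there. With DESeq2 over all 10 libraries, 2 passed, beside 0.163% of all genes. Most of these named genes were picked by their small p over the same libraries, so their passing is not separate support. Depth of 15722527 to 19475833 counts leaves Rpl24, Rps10 and Rpl3l with few reads in a library, and their values carry large counting error. Reads shared with copies or with genes of the opposite strand limit the values of single genes. No fit corrected for reads of the opposite strand, and their effect on the family was not tested. PBS and DMM mice cannot be compared here with kidneys without obstruction, and RNA levels say nothing of translation or protein.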
